A study of Rattus norvegicus with 6 samples.

Results

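The genes described here are 10 that mark macrophages or carry out their scavenging: Csf1r, Csf1, Cd68, Aif1, Adgre1, Lyz2, Cd14, Msr1, Mrc1 and Cd163. They were chosen by symbol, and all 10 were among the 17771 genes listed in the count table and among the 14213 that passed the filter on low counts. Bulk RNA sequencing was done on cornea from Wistar recipients, each grafted with SD rat cornea. Recipients received resveratrol, a plant polyphenol, or saline by daily intraperitoneal injection, and the corneas represent day 7 after grafting. There are 3 libraries per treatment, and the saline group is called control. Both groups carry the allograft, so neither represents an ungrafted cornea. The labels give no dose, age or sex, do not say which part of the cornea was taken, and do not state whether each library is a separate animal, so the p-values given cover library-to-library spread, which may be technical.

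Macrophages are phagocytes that settle in tissues before birth or arise from blood monocytes, and both kinds depend on signals through the receptor CSF1R. A normal cornea holds resident macrophages in its stroma, and more enter from the limbus when a graft is rejected. Macrophages take up modified lipoproteins, glycoproteins, haemoglobin complexes and dying cells through scavenger receptors, and several of those receptors are more abundant on cells that resolve inflammation or repair tissue. The study's title speaks of graft rejection under resveratrol, and the comparison asks how these genes differed between the treatments.

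Of the macrophage genes, 5 had lower scaled counts in every resveratrol library than in any control library: Csf1r, Csf1, Cd68, Aif1 and Adgre1. Their means in resveratrol were between 0.450 (Aif1) and 0.791 (Csf1) of the control means in scaled CPM (counts relative to library size). The haemoglobin scavenger receptor Cd163 and the mannose receptor Mrc1 had means that differed by less than either group's SD, and Lyz2, Cd14 and Msr1 had lower means in resveratrol with overlapping groups. None of the 10 passed edgeR's quasi-likelihood test after Benjamini-Hochberg adjustment over all tested genes, and no other gene did (0% of the genes tested; smallest adjusted p = 0.1002). At an unadjusted p under 0.05 the test gave those 5 genes, all lower, where 11.7% of all genes tested were lower at that level and 7.84% higher, 19.6% in either direction. Lower means in resveratrol were found for 8 of the 10 genes, against 51.2% of all genes tested. DESeq2, run as an alternative, called 3 of the 10, Cd68, Csf1r and Aif1, all lower, against a background of 4.64% of genes called lower and 2.23% called higher. Lower levels without overlap were found in 14.4% of all genes tested, and higher levels without overlap in 12.2%.

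Before the values, the sequences from which 4 of these genes start are shown, because Csf1r and Cd68 were lower in resveratrol while Cd163 and Mrc1 overlapped between the groups. Each is the RefSeq promoter window of assembly GRCr8, from 250 bases before to 50 after the annotated start, in the direction of transcription. The capitals mark the letters GAGGAA, or TTCCTC where the match lies on the other strand, a core of sites bound by PU.1, the macrophage transcription factor encoded by Spi1. The window of Csf1r is chr18:56834129-56834428 on the plus strand, that of Cd68 is chr10:54882392-54882691 on the minus strand, that of Mrc1 is chr17:82157475-82157774 on the plus strand, and that of Cd163 is chr4:158770524-158770823 on the plus strand.
Csf1r: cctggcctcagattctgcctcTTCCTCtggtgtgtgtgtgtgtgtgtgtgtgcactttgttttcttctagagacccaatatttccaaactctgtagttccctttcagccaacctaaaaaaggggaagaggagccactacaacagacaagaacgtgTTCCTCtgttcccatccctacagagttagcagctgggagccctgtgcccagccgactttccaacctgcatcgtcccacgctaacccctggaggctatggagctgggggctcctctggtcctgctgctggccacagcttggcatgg
Cd68: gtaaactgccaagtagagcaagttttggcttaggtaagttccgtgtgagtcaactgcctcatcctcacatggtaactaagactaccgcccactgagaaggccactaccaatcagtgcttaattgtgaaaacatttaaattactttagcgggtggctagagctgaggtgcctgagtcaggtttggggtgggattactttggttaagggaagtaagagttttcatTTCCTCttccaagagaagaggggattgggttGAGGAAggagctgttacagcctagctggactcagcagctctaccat
Mrc1: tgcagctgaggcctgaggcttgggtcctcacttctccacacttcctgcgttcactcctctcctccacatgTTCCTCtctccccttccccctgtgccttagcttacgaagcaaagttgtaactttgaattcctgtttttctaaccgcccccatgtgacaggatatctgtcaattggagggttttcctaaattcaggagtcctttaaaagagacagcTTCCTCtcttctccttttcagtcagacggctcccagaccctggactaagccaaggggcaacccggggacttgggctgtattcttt
Cd163: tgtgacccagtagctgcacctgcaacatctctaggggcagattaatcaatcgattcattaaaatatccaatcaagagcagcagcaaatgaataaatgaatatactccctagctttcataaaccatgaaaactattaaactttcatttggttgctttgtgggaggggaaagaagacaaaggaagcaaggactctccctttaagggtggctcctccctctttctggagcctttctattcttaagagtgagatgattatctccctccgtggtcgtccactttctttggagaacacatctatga

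The table of windows held 7 of the 10 genes. Msr1, Csf1 and Aif1 were not matched. On either strand GAGGAA occurred in 6 of the 7 windows, those of Csf1r, Cd68, Adgre1, Lyz2, Cd14 and Mrc1. These letters are held by 27.5% of the 27457 windows given there, and by 26.8% of the 10881 that belong to genes tested here. Cd163 was the window without a match, and those of Mrc1, Csf1r and Cd68 had 2 matches each. Of the other motifs searched, TGANTCA, the AP-1 site, occurred in the window of Cd68 alone, where 2 copies lie 205 and 80 bases before the start (5.30% of windows of tested genes hold it). The C/EBP letters TTGCNNAA occurred in those of Lyz2 and Adgre1 (8.63%), and the interferon response letters, GAAA repeated after any 2 bases, in that of Adgre1 (2.99%). No match of one motif overlapped a match of another in these windows. A match describes the letters and is neither a shown binding site nor a cause of a level.

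Levels in a library are given as CPM, counts divided by library size and scaled by edgeR's TMM factors, which suits a comparison of one gene between libraries. Levels of different genes are compared in the authors' FPKM, which are also divided by gene length. Total counts were 36904770 to 37301669 in resveratrol and 35068936 to 37460756 in control, so depth was similar. Within the macrophage genes the lowest count in a library was 84, for Msr1, so counting error was at most 10.9% of a value and replicate spread was larger for every gene. Changes are log2 fold changes, resveratrol minus control, with the moderated standard error. In bulk tissue, fewer macrophages and less RNA of a gene per macrophage cannot be told apart.

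Csf1r, the receptor tyrosine kinase on which survival of most macrophages depends, had 25.8, 33.6 and 37.5 CPM in resveratrol libraries 1, 2 and 3, against 74.3, 65.6 and 40.9 CPM in control libraries 1, 2 and 3. Every resveratrol library lay below every control library, but control 3 was only slightly above resveratrol 3. The means were 32.3 ± 5.97 and 60.2 ± 17.3 CPM (SD, n = 3 each), a log2 fold change of -0.90 ± 0.24 (edgeR adjusted p = 0.131, DESeq2 adjusted p = 0.00844). The DESeq2 call was lost without resveratrol 1, without control 1 and without control 2. In libraries 2 and 3 alone the edgeR log2 fold change was -0.58.

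Csf1, the main ligand of that receptor, is made by fibroblasts, endothelium and epithelium as well as by leukocytes. It had 19.3, 17.02 and 20.1 CPM in resveratrol, against 21.7, 24.1 and 25.4 CPM in control. The groups did not overlap. The spread within resveratrol was the smallest of the 10 genes, with the highest library 1.18 times the lowest, and that within control, at 1.17 times, was second to Cd14 at 1.11 times. The change was small, at -0.34 ± 0.11 on the log2 scale (edgeR adjusted p = 0.176, DESeq2 adjusted p = 0.132). Control 1, the highest control library for Csf1r, was the lowest for Csf1. Il34, the second ligand of CSF1R, had 1.64 ± 0.225 FPKM in resveratrol and 2.01 ± 0.0777 FPKM in control, also without overlap (-0.30 ± 0.14, edgeR adjusted p = 0.294).

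**Figure D1:**
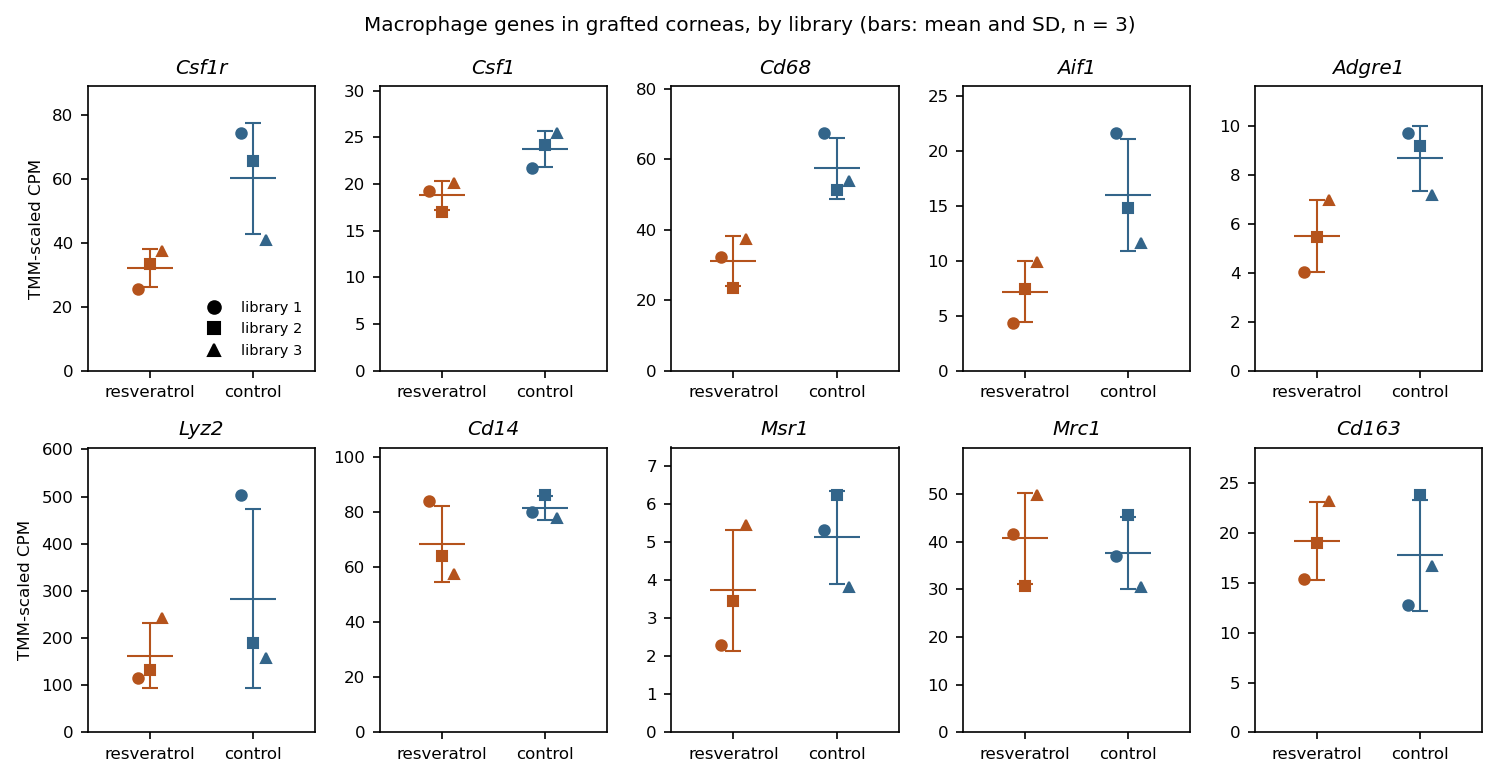
TMM-scaled CPM of the 10 macrophage genes in each library, on linear axes that start at 0, with resveratrol on the left and control on the right of each panel. Points are libraries, and bars give the mean and SD (n = 3); Csf1r, Csf1, Cd68, Aif1 and Adgre1 do not overlap between the groups, and control 1 stands at 503 CPM for Lyz2.

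Cd68, a glycosylated protein of the macrophage lysosome and the antigen of the rat antibody ED1, had 32.3, 23.6 and 37.5 CPM in resveratrol, against 67.3, 51.3 and 53.8 CPM in control. The groups were well apart, and the highest resveratrol library was below the lowest control library by more than either SD, which were 7.00 and 8.60 CPM. Its log2 fold change of -0.88 ± 0.18 had the smallest p-value of the 10 genes, ranked 207 among all genes tested (edgeR adjusted p = 0.109, DESeq2 adjusted p = 0.00113). DESeq2 called Cd68 also without each library in turn and in libraries 2 and 3 alone, and it was the sole macrophage gene for which this held.

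Aif1, a calcium-binding protein of macrophages also called IBA1, had 4.34, 7.41 and 9.87 CPM in resveratrol, against 21.6, 14.8 and 11.6 CPM in control. No library of one group reached the other, and control 3 was again nearest to resveratrol 3. The change was the largest of the 10, at -1.15 ± 0.33 on the log2 scale (edgeR adjusted p = 0.154, DESeq2 adjusted p = 0.0170). In libraries 2 and 3 alone it was -0.61, smaller in size than that of Cd68 at -0.78. DESeq2 lost the call without resveratrol 1, resveratrol 2, control 1 or control 2.

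Adgre1, an adhesion G protein-coupled receptor known in mouse as F4/80, was a low gene with 4.04, 5.45 and 6.98 CPM in resveratrol, against 9.69, 9.17 and 7.16 CPM in control. The groups were separate by a margin smaller than counting error, since resveratrol 3 had 265 raw counts and control 3 had 267. In FPKM that pair was the other way round, at 2.204 in resveratrol 3 and 2.195 in control 3, so the groups touched. Its log2 fold change was -0.66 ± 0.23 (edgeR adjusted p = 0.193, DESeq2 adjusted p = 0.103), and it was -0.39 in libraries 2 and 3 alone.

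Lyz2, the lysozyme of macrophages, monocytes and neutrophils, was the most abundant of the 10 in FPKM. Its control libraries had the widest spread of the 10 genes, with the highest 3.18 times the lowest, while in resveratrol the 2.11 times of Lyz2 was below the 2.38 times of Msr1 and the 2.27 times of Aif1. It had 115, 131 and 243 CPM in resveratrol, against 503, 190.1 and 158 CPM in control. Control 1 stood far above the other libraries, and resveratrol 3 was higher than control 2 and control 3, so the groups overlapped. The log2 fold change was -0.80 ± 0.46 (edgeR adjusted p = 0.388, DESeq2 adjusted p = 0.542). Without control 1 it was -0.093, and in libraries 2 and 3 alone it turned to 0.10, so the lower mean rested on that library. A second lysozyme gene, Lyc2, is listed beside it with at most 4.40 CPM in a library, and the counting of reads that fit both is not stated, so the split between them is uncertain.

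Cd14, the co-receptor that passes bacterial lipopolysaccharide to TLR4, is carried by monocytes and also by corneal epithelial cells and keratocytes. It had 84.0, 64.1 and 57.4 CPM in resveratrol, against 80.1, 86.2 and 77.9 CPM in control. Resveratrol 1 lay within the control range and the other resveratrol libraries lay below it. The change was -0.25 ± 0.14 on the log2 scale (edgeR adjusted p = 0.368, DESeq2 adjusted p = 0.421). Without resveratrol 1 DESeq2 called Cd14 lower (log2 fold change -0.40, adjusted p = 0.0268).

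**Figure D2:**
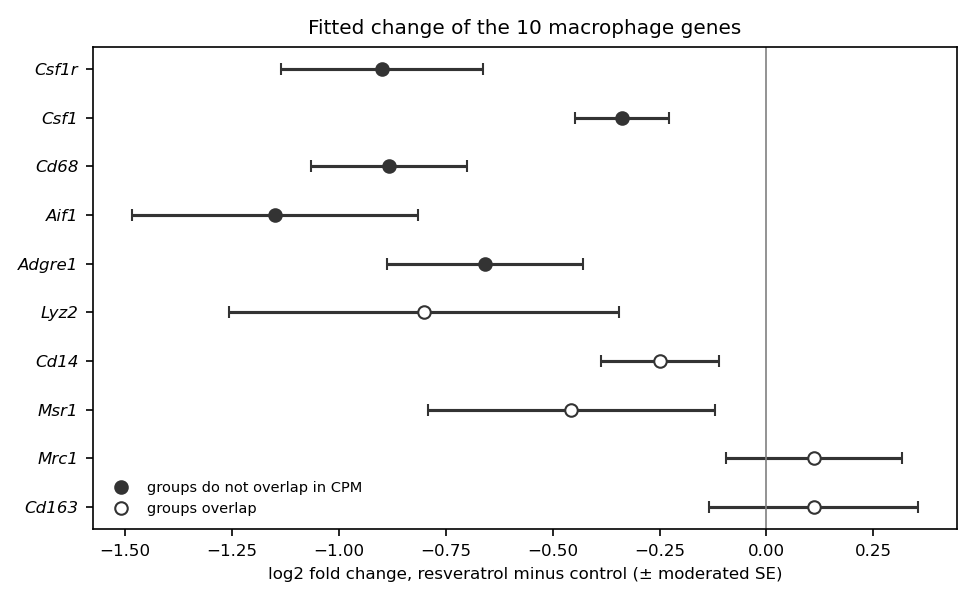
Fitted log2 fold change of each macrophage gene, resveratrol minus control, with its moderated standard error, from edgeR on all 6 libraries. Filled points mark genes whose groups do not overlap in CPM; the values run from -1.15 for Aif1 to 0.11 for Cd163 and Mrc1, and none passed the adjusted threshold.

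Msr1, the class A receptor for modified low-density lipoprotein, had 2.29, 3.44 and 5.45 CPM in resveratrol, against 5.32, 6.23 and 3.81 CPM in control. Resveratrol 3 was above control 1 and control 3, so the groups overlapped, as they did for Lyz2 and Cd14. The log2 fold change was -0.46 ± 0.34 (edgeR adjusted p = 0.488, DESeq2 adjusted p = 0.523), and it was -0.83 without resveratrol 3 and -0.17 in libraries 2 and 3 alone.

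Mrc1, the mannose receptor CD206 that binds sugar chains and collagen, had 41.6, 30.7 and 49.8 CPM in resveratrol, against 37.1, 45.6 and 30.5 CPM in control. High and low libraries stood in both groups, and the highest value was in resveratrol 3. The log2 fold change was 0.11 ± 0.21 (edgeR adjusted p = 0.798, DESeq2 adjusted p = 0.804). Cd163, the receptor for haemoglobin bound to haptoglobin and the antigen of the rat antibody ED2, had 15.4, 19.0 and 23.2 CPM in resveratrol, against 12.8, 23.8 and 16.7 CPM in control. The groups again overlapped over nearly their whole range, and control 1, the highest library for 5 of the other genes, was the lowest for Cd163. The log2 fold change was 0.11 ± 0.24 (edgeR adjusted p = 0.832, DESeq2 adjusted p = 0.839). For both genes the sign turned when a single library was left out, without resveratrol 3 for each, without control 1 for Cd163 (-0.074) and without control 3 for Mrc1 (-0.019).

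Since Cd163 and Mrc1 differed less than Csf1r and Cd68, their ratios within a library are given as a description. These ratios were chosen with the values known and carry no test, and an exact permutation test of 3 against 3 libraries could not go below p = 0.1. The FPKM of Cd163 were 0.567, 0.537 and 0.587 of those of Csf1r in resveratrol, against 0.164, 0.345 and 0.388 in control. The 3 resveratrol ratios lay close together and above every control ratio. The FPKM of Mrc1 were 1.27, 0.721 and 1.05 times those of Csf1r in resveratrol, against 0.393, 0.547 and 0.587 in control, again without overlap.

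Relative to Cd68, Mrc1 was at 0.295, 0.298 and 0.305 in resveratrol, against 0.126, 0.204 and 0.130 in control, and Cd163 at 0.132, 0.222 and 0.171 in resveratrol, against 0.0526, 0.128 and 0.0859 in control. The resveratrol ratios of Mrc1 to Cd68 were nearly equal in all 3 libraries, although Mrc1 itself ranged 1.62-fold among them. Such a shift is common, because most genes were not lower by as much as these denominators: over all genes tested, 56.8% had a higher ratio to Csf1r and 71.4% a higher ratio to Cd68 in resveratrol without overlap. The ratio of Msr1 to Csf1r overlapped, at 0.104 to 0.170 in resveratrol and 0.0840 to 0.112 in control. Cd68 to Csf1r was at 3.38 ± 0.946 in resveratrol and 3.44 ± 0.957 in control, so these genes kept about the same mean proportion with a wide spread.

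**Figure D3:**
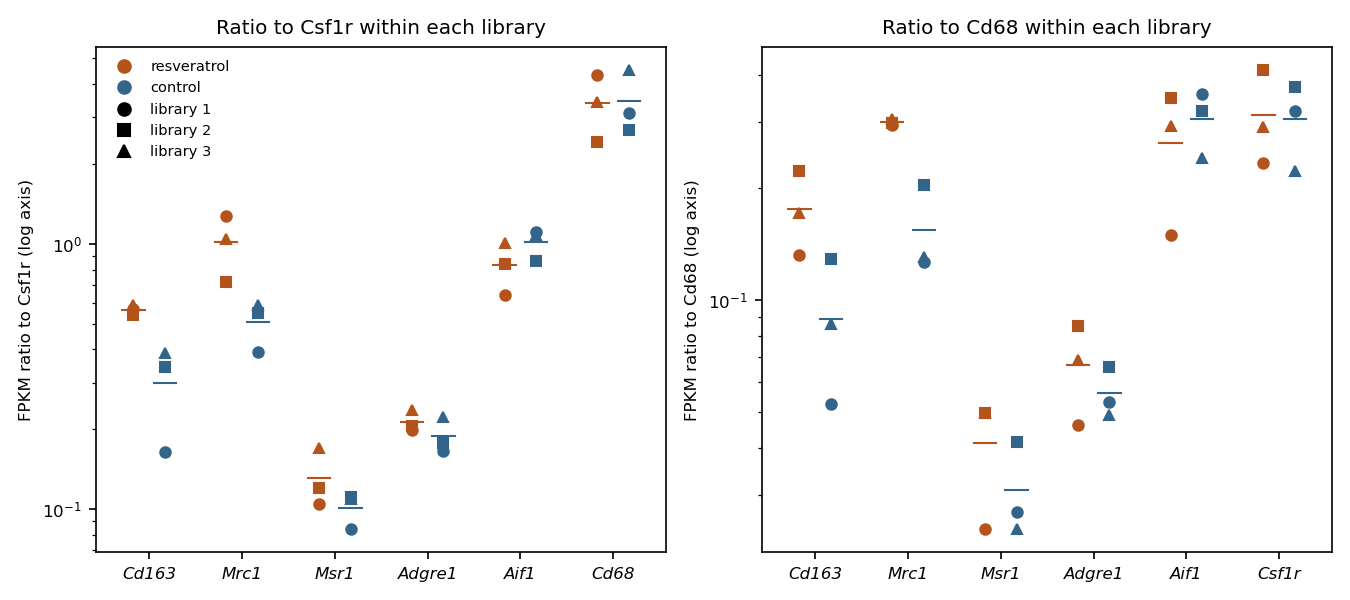
FPKM of macrophage genes divided by the FPKM of Csf1r (left) and of Cd68 (right) in the same library, on log axes, with resveratrol left of control for each gene. Points are libraries and short lines the means; Cd163 and Mrc1 have higher ratios in every resveratrol library than in any control library, while Adgre1 and Aif1 overlap.

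In length-normalised level the 10 genes spanned about the same order in both groups. Lyz2 was the highest in both, with 125 ± 55.5 FPKM in resveratrol and 213 ± 143 FPKM in control, followed by Cd14 with 45.1 ± 8.05 and 53.1 ± 2.79 FPKM in the same order of groups, and by Cd68 with 26.1 ± 6.09 FPKM in resveratrol and 47.6 ± 7.04 FPKM in control. Cd14 and Cd68 did not differ beyond their spread in control but were apart in resveratrol, where the lowest library had 38.7 FPKM for Cd14 and the highest 32.0 FPKM for Cd68. Csf1r, Mrc1 and Aif1 were level with each other in resveratrol, at 7.90 ± 1.62, 7.83 ± 1.92 and 6.74 ± 2.72 FPKM. In control, Aif1 and Csf1r, at 14.7 ± 4.65 and 14.5 ± 4.15 FPKM, stood above Mrc1, at 7.16 ± 1.43 FPKM. Cd163 and Csf1 followed at 4.46 ± 1.002 and 4.09 ± 0.371 FPKM in resveratrol, and at 4.07 ± 1.28 and 5.11 ± 0.419 FPKM in control. Adgre1 and Msr1 were the lowest in both groups, with at most 2.96 and 1.76 FPKM in a library.

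The libraries were not ordered alike for every gene. Among resveratrol libraries, library 3 was the highest for 9 of the 10 genes, with Cd14 the exception, and library 1 the lowest for 6. Among control libraries, library 3 was the lowest for 7 genes, Cd14 included. Csf1r and Adgre1 ran most nearly parallel, since the log2 difference between their CPM had an SD of 0.19 over the 6 libraries. Cd163 and Lyz2 were least alike, with an SD of 0.94. Among named genes with a mean of at least 5 CPM, those most nearly parallel to Csf1r were Slfn4, Apol9a, Nceh1, C1qtnf6 and Adam19, with an SD of 0.087 to 0.11. All of them had lower means in resveratrol, between -1.02 for C1qtnf6 and -0.71 for Adam19 on the log2 scale. Slfn4 and Apol9a have close paralogs, and their counts are uncertain for that reason. Those most nearly parallel to Csf1 were Rab38, Stoml1, Pde6d, Eef1akmt1 and Flt3lg, with an SD of 0.044 to 0.063 and log2 fold changes between -0.36 for Flt3lg and -0.25 for Eef1akmt1. Since a small SD over the same 6 libraries selected these genes, fold changes near those of Csf1r and Csf1 follow from the choice. Likeness over 6 libraries is a description and carries no test.

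The other genes of these pathways were taken from lists of related genes. No gene of any list passed edgeR's adjusted threshold. Of the 130 tested genes on them that are not among the 10, 106 had lower and 24 higher means in resveratrol (median log2 fold change -0.53), against 7278 lower and 6935 higher of all 14213 genes tested (median -0.0080). DESeq2 called 35 of these 130 lower and 2 higher, against 4.64% lower and 2.23% higher of all genes with a DESeq2 adjusted p-value. From each list the genes with the highest FPKM are named below, and others were named after their values were seen.

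Markers of macrophages and monocytes outside the 10 genes had lower means in 20 of 21 tested (median -0.94). At an unadjusted p under 0.05 in edgeR 17 were lower, against 11.7% of all genes tested. The list includes genes of leukocytes at large, such as Ptprc, so these counts are not particular to macrophages. The most abundant, Lgals3 (896 ± 25.1 FPKM in resveratrol and 917 ± 91.5 FPKM in control) and Gpnmb (139 ± 14.9 and 150 ± 10.3 FPKM, in that order of groups), had log2 fold changes of -0.049 ± 0.10 and -0.12 ± 0.11. Galectin-3, the product of Lgals3, is also abundant in corneal epithelium. The complement genes C1qa and C1qc, made mainly by macrophages, differed by -0.95 ± 0.23 and -0.75 ± 0.18 without overlap (DESeq2 adjusted p = 0.00391 and 0.00732), and C1qb, the gene of the other chain, by -0.68 ± 0.23 with overlap (DESeq2 adjusted p = 0.0722). Ccr2, the chemokine receptor of incoming monocytes, was at 0.255 ± 0.115 FPKM in resveratrol and 1.15 ± 0.484 FPKM in control, without overlap (-2.20 ± 0.44, edgeR adjusted p = 0.106, DESeq2 adjusted p = 0.000121). Mertk, a receptor for dying cells, was the sole gene of this list with a higher mean, at 5.90 ± 1.10 FPKM in resveratrol and 3.65 ± 0.632 FPKM in control, also without overlap (0.68 ± 0.19, edgeR adjusted p = 0.146, DESeq2 adjusted p = 0.0207). Mertk is expressed outside macrophages too.

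Around the receptor CSF1R, 11 of 14 signalling genes had lower means (median -0.62). Tyrobp, an adaptor with an activation motif, was at 25.2 ± 11.3 FPKM in resveratrol and 47.5 ± 14.6 FPKM in control (-0.94 ± 0.34), whereas the widely expressed adaptor Grb2 was at 43.0 ± 2.62 and 40.9 ± 2.24 FPKM in the same order (0.056 ± 0.075). Of the colony-stimulating factors and receptors 6 of 7 tested had lower means (median -0.53), a list that includes Csf1 and Csf1r. Csf2ra had a log2 fold change of -0.69 ± 0.23 with overlap, and Csf2 was not tested. Transcription factors were divided, with 7 of 13 lower (median -0.14). Klf4 and Bhlhe40, the most abundant and both expressed in epithelium, had log2 fold changes of 0.20 ± 0.093 and 0.27 ± 0.20, while Spi1, the gene of PU.1, differed by -0.92 ± 0.32 with overlap and Irf8 by -0.84 ± 0.23 without.

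Of the other scavenger receptors 13 of 16 tested had lower means (median -0.39), and Marco, Cd163l1 and Cd209b were not listed in the count table. Cxcl16 and Scarb2, the most abundant, differed by -0.057 ± 0.11 and 0.042 ± 0.12. Mrc2, the paralog of Mrc1 that fibroblasts use to take up collagen, was at 13.7 ± 1.53 FPKM in resveratrol and 23.2 ± 6.12 FPKM in control (-0.78 ± 0.20, DESeq2 adjusted p = 0.00946), without overlap. Genes that handle the haem and iron taken up through CD163 had lower means in 10 of 10 tested (median -0.42). Of these, 7 were lower without overlap, against 14.4% of all genes tested. Fth1 and Ftl1, the ferritin chains, differed by -0.076 ± 0.16 and -0.53 ± 0.11. Hmox1, which breaks down haem, was at 15.8 ± 4.39 FPKM in resveratrol and 29.7 ± 5.86 FPKM in control (-0.92 ± 0.23, DESeq2 adjusted p = 0.00564), and Slc40a1, the iron exporter, at 2.23 ± 0.487 and 6.53 ± 2.30 FPKM in the same order (-1.57 ± 0.26, edgeR adjusted p = 0.1002, DESeq2 adjusted p = 7.55e-06). Cd163 itself, as above, overlapped between the groups.

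Partners of CD14 in lipopolysaccharide sensing had lower means in 9 of 13 (median -0.12). Ly96 and Irak1, the most abundant, differed by -0.085 ± 0.11 and 0.19 ± 0.075, and Tlr4, the signalling receptor, by -0.15 ± 0.14. DESeq2 called 3 of the 13, all lower without overlap, against 4.64% of all genes called lower. They were Tlr2 (-0.57 ± 0.15, DESeq2 adjusted p = 0.0350), Lbp (-1.26 ± 0.36, DESeq2 adjusted p = 0.0165) and Cd180 (-1.86 ± 0.52, DESeq2 adjusted p = 0.0245). Lbp and Cd180 were low, at means of 6.49 and 2.42 CPM in control. Irak1 and Irak4 were higher without overlap. Genes of classical activation had lower means in 11 of 11 tested (median -0.78), with Nos2 at -0.36 ± 0.13 and Il1b at -0.70 ± 0.28. Genes of alternative activation had lower means in 8 of 9 tested (median -0.62), with Tgm2 at -0.62 ± 0.34. Il4r, the receptor for interleukin 4, was the exception at 0.41 ± 0.11, and Arg1 was at 51.3 ± 21.2 FPKM in resveratrol and 104 ± 8.37 FPKM in control (-1.04 ± 0.27, DESeq2 adjusted p = 0.00549). Lower means were thus found on both activation lists. Of chemoattractants for monocytes and their receptors 7 of 9 had lower means (median -0.65), while Ccl2, the most abundant, was at 25.4 ± 7.44 FPKM in resveratrol and 24.4 ± 16.4 FPKM in control (0.046 ± 0.46) and Cx3cl1 differed by 0.25 ± 0.15. Lysosomal genes had lower means in 9 of 13 tested (median -0.27), with the broadly expressed Ctsl and Ctsb at 0.0048 ± 0.11 and -0.27 ± 0.17 and the leukocyte cathepsin Ctss at -1.11 ± 0.28.

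**Figure D4:**
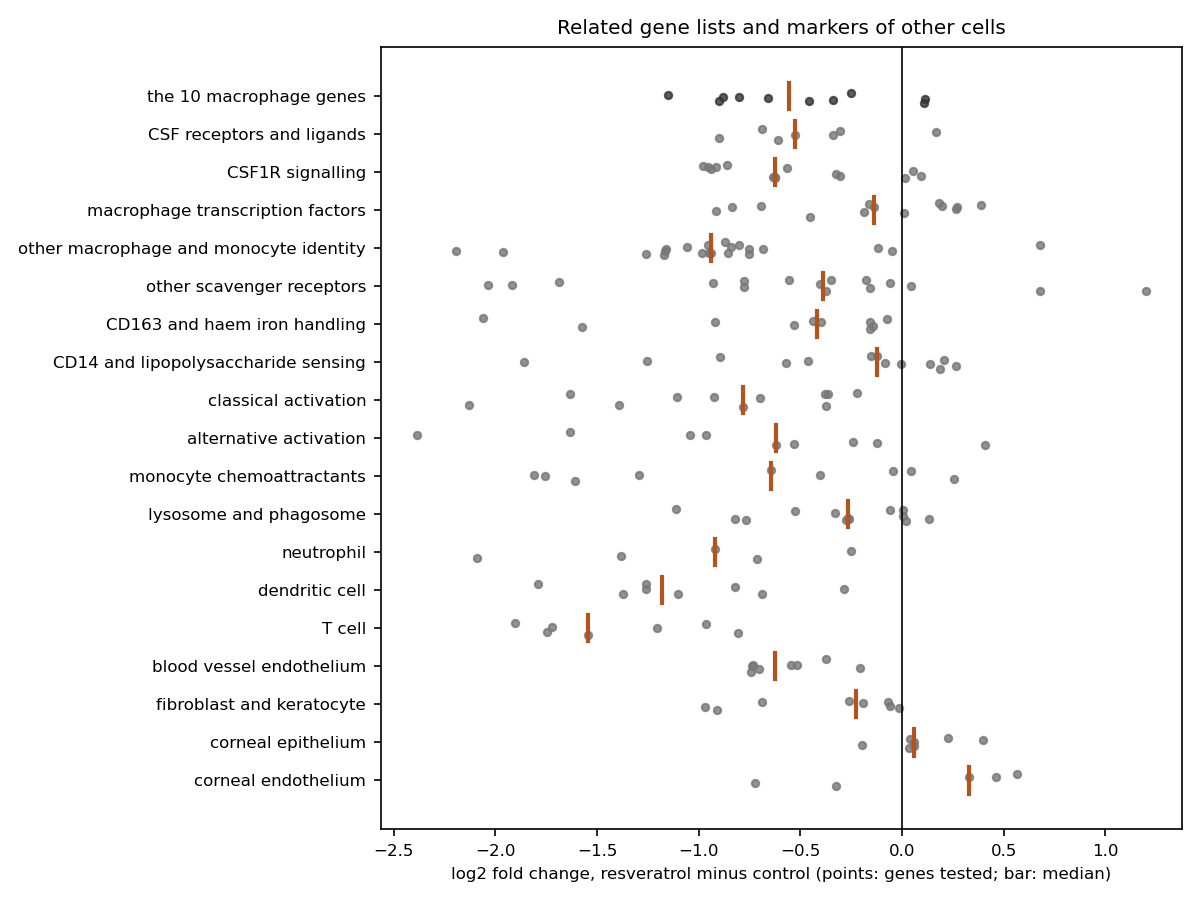
Fitted log2 fold change, resveratrol minus control, of every tested gene on each list, with the macrophage genes at the top. Points are genes and orange bars are list medians, which lie at -0.56 for the 10 macrophage genes, -1.54 for T cell markers and 0.059 for corneal epithelium.

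Markers of other leukocytes, vessels and stroma had lower means in resveratrol, and markers of corneal epithelium and endothelium mostly had higher means. T cell markers had lower means in 7 of 7 tested, and their summed level was 17.2 to 28.0 CPM in resveratrol and 30.7 to 61.4 CPM in control. Most of that sum was Cd4 (mean 17.03 CPM in resveratrol and 29.8 CPM in control), which rat monocytes and macrophages also express, while Cd3e was at 0.417 and 1.58 CPM in the same order (-1.90 ± 0.55), without overlap. Dendritic cell markers had lower means in 8 of 8 tested (150 to 200.5 CPM in resveratrol and 277 to 598 CPM in control). Most of that sum was Cd74 (mean 165 CPM in resveratrol and 396 CPM in control), which is not confined to dendritic cells. Flt3 was at 0.723 and 2.51 CPM in the same order. Neutrophil markers had lower means in 5 of 5 tested (148 to 199 CPM in resveratrol and 218 to 564 CPM in control), with Mpo and Ltf not listed. Most of the neutrophil sum was S100a9 (mean 125 CPM in resveratrol and 236 CPM in control) and S100a8 (46.2 and 120 CPM in the same order). Of the 5, S100a9 alone did not overlap between the groups, and Cxcr2 differed by -0.25 ± 0.40. Elane, Ngp, Camp and Cd177 were not tested. Blood vessel markers had lower means in 8 of 8 (322 to 409 CPM in resveratrol and 492 to 668 CPM in control), and fibroblast and keratocyte markers in 8 of 8 (9048 to 12655 CPM in resveratrol and 13411 to 19268 CPM in control). Most of the stromal difference lay in the collagen genes Col1a1 (mean 3593 CPM in resveratrol and 7044 CPM in control) and Col1a2 (2381 and 4468 CPM in the same order). Thy1 was also lower without overlap (85.6 and 138 CPM in the same order, -0.69 ± 0.16, DESeq2 adjusted p = 0.00564). Kera, Lum, Dcn, Pdgfra and Aldh1a1 overlapped, with log2 fold changes of -0.26 to -0.015. Corneal epithelial markers had higher means in 6 of 7, with sums that overlapped (82136 to 95262 CPM in resveratrol and 83064 to 90929 CPM in control). Corneal endothelial markers had higher means in 3 of 5 (median 0.33), and their sums overlapped too (835 to 1407 CPM in resveratrol and 818 to 992 CPM in control). The summed level of the 10 macrophage genes was 336 to 490.4 CPM in resveratrol and 426 to 833 CPM in control, so it overlapped. In every library the largest part of that sum was Lyz2 (mean 163 CPM in resveratrol and 284 CPM in control), whose groups overlapped. The overlap of the sum therefore does not describe the 5 macrophage genes that were lower without overlap. Ptprc, the CD45 antigen of all leukocytes, differed by -0.85 ± 0.26 with overlap, close in size to Csf1r and Cd68. Every listed marker had a count in at least 1 library, and the part of other cells in the macrophage values was not tested.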

How the data were processed

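RNA from corneas was sequenced as 150 bp paired-end reads, per the labels' protocols. The authors deposited raw counts per gene (whole numbers, not normalized) together with FPKM, as their values and headers show. Per the submitters' processing notes, the build was mRatBN7.2, and DESeq2 and R 3.2.0 are listed without saying for what. Aligner, counter, annotation and strand setting: not given in the sources used here. A separator is missing in the count table's header, so columns were assigned by name and checked against FPKM: across genes, the SD of the log2 count-to-FPKM ratio (control 1 as base) was 3.54e-10 or less where columns matched and 0.271 or more where they did not.

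Deposited counts were filtered by filterByExpr and TMM-scaled. The main test was the quasi-likelihood test of edgeR 4.0.16 (no covariate, Benjamini-Hochberg over 14213 genes, threshold 0.05) in R 4.3.3. Standard errors come from limma 3.58.1 on log2 CPM (prior count 2). With DESeq2 1.42.0, 14666 genes had an adjusted p-value. The tests were tried on simulated data. The members, lists and named genes (the 2 of highest FPKM per list, the 5 most parallel to Csf1r and to Csf1, by the SD of the log2 CPM difference) were chosen with earlier results of these data known. No pair of libraries was a duplicate (chi-square over degrees of freedom, 27.5 to 81.4 over all pairs). Alternatives covered scaling, filters, tools, FPKM with pseudocounts of 1 and 0.1, blocks, the Sep or Oct ending of the descriptions and each library left out. Symbols of all 10 members matched RefSeq for GRCr8, used for promoter windows alone.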

Additional observations from a re-analysis of the deposited data

How the results depend on the processing

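The count of macrophage genes called, 0 in edgeR, was 0 under every alternative but DESeq2, which called 3 of the 10, 38 of the related genes (0 in edgeR; Atp6v0d2, which edgeR's filter left out, is among the 38) and 1007 of all genes (0 in edgeR). Leaving out each library in edgeR gave 0 to 21 calls over all genes, 21 without control 3 and 1 without resveratrol 2, none of them a macrophage gene. The 5 macrophage genes at an unadjusted p under 0.05 became 3 to 6 when a library was left out, with the fewest without resveratrol 2; Cd68, Csf1r and Aif1 were among them under every alternative run. Over all genes that count was 2782 and 1811 to 2675 without a library, with the fewest without control 2. The 3 DESeq2 calls became 1 to 4 without a library, 1 without control 1 and 1 without control 2 (Cd68), and 1 in the Oct libraries alone. These leave-out runs of DESeq2 and the counts at an unadjusted p were added after seeing the data. Of 190 recomputed fold changes of the 10 genes, 182 kept their sign and their side of the threshold, 3 passed in DESeq2 (Cd68, Csf1r, Aif1) and 5 changed sign: Cd163 without resveratrol 3 (-0.041) and without control 1 (-0.074), Mrc1 without resveratrol 3 (-0.052) and without control 3 (-0.019), and Lyz2 in the Oct libraries alone (0.10); the cause was not tested. Without each library the value ran from -0.074 to 0.38 for Cd163 and from -0.052 to 0.28 for Mrc1. With the replicate number as a block edgeR called 0 genes and the same 5 macrophage genes lay at an unadjusted p under 0.05. Deviations of same-numbered libraries were correlated at -0.0044, -0.012 and -0.023, so the numbers were not taken as pairs. With 3 libraries per group, changes within the spread of Msr1, Lyz2, Mrc1 and Cd163 were not detectable.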
